A study of Arabidopsis thaliana with 8 samples.

Results

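The libraries described here hold the transcriptome of the wild-type (WT) Arabidopsis thaliana rosette leaf at 24 days, taken from a study of the α/β hydrolase DWARF14-LIKE 2 (DLK2). They are the 4 libraries labelled WT, replicates 1 to 4, of 8 libraries in all. The other 4 come from the overexpression line DLK2-OE1 and were not compared here. WT seedlings grew for 11 days on plates of Murashige and Skoog medium and for 13 more days on soil, without a treatment, and the rosette leaves were then frozen. Libraries were made from poly(A) RNA enriched from total RNA. The labels do not give the accession of the wild type, the hour of harvest, the number of plants behind a library, or whether the replicates were grown separately, so the spread among them may be technical or biological. All differences among the libraries are descriptions of these 4 samples, since a design with 1 group has no test.

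A rosette leaf is built mainly of mesophyll cells packed with chloroplasts, and many of the chloroplast's proteins are encoded in the nucleus. Light is caught by chlorophyll a/b-binding antenna proteins (LHCB genes for photosystem II, LHCA genes for photosystem I), passed through the photosystems and the electron transport chain, and spent by Rubisco and the Calvin cycle to fix carbon dioxide. Photorespiration then recovers the carbon that Rubisco loses to oxygen. Epidermis, guard cells, phloem and xylem make up smaller fractions of the organ and carry their own marker transcripts.

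The WT tables summed to between 18097159 and 22139801 counts a library and agreed closely. Of 13355 genes with a mean of at least 5 CPM (counts scaled to library size by trimmed mean of M-values factors of 0.962 to 1.054), between 86 and 356 were 2-fold or more apart in any pair of libraries. Replicates 2 and 3 were the closest pair, and replicates 1 and 4 the farthest. No pair of libraries agreed within sampling noise, since a chi-square statistic per degree of freedom ran from 11.4 to 38.7 over the 6 pairs, so none was counted as a second deposit of another. That comparison is with counting noise only and does not say how the libraries were prepared. The light harvesting, seed, pollen and root lists matched the label of a leaf: the 21 light harvesting genes of the list summed to between 99558 and 119648 FPKM (fragments per kilobase of transcript, scaled to library size), while 19 seed genes summed to at most 1.24 FPKM, 14 pollen genes to at most 2.37 and 24 root genes to at most 13.5. The list of 22 shoot meristem and flower genes summed to more, between 68.9 and 103.6 FPKM, and its genes are described further on. Seed storage protein genes CRA1, CRU2 and CRU3 and the root hair genes RHD6, RSL4, EXPA7 and COBL9 had 0 counts in all 4 libraries.

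The first promoters introduce the transcripts that lead the ranking, the light harvesting genes LHCB1.3 and LHCB1.5 and the Rubisco small subunit gene RBCS1A. Each sequence is the 250 bases before the annotated gene start on the gene's strand, 5′ to 3′, from RefSeq's TAIR10.1 genome: chr1:10477635-10477884 on the + strand, chr2:14523569-14523818 on the - strand and chr1:25049668-25049917 on the - strand. Capitals mark matches, on either strand, to the CCAAT box (CCAAT), the I-box (GATAAG) or the G-box (CACGTG), motifs known from promoters of light-regulated genes.
LHCB1.3: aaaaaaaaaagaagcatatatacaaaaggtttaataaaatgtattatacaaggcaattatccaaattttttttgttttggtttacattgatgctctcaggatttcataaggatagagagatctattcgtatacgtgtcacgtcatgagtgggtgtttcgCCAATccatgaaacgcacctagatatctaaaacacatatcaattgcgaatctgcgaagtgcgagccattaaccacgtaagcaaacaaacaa
LHCB1.5: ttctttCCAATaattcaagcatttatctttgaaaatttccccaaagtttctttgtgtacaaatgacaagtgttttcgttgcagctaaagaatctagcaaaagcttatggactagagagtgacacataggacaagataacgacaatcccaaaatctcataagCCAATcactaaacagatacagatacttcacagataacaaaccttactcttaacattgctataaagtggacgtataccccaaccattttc
RBCS1A: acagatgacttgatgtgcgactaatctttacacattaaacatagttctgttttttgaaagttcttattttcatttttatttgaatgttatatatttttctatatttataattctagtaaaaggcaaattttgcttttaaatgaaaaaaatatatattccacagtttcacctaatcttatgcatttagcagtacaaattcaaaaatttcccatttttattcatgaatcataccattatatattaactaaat
LHCB1.3 held 1 CCAAT box and LHCB1.5 held 2, and the RBCS1A window held none of the 3 motifs. Of the 25 genes with the highest mean FPKM, 17 held a CCAAT box in that window (68.0%), against 46.1% of 26709 promoters of the genome. An I-box stood in 6 of the 25 (24.0%, against 12.2% of all promoters) and a G-box in 4 (16.0%, against 6.58%). These shares describe letters in a window of 250 bases, and no binding was measured.

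Photosynthesis headed the abundance ranking without exception. All 25 genes with the highest mean FPKM, and 65 of the highest 100, belonged to the lists of light harvesting, photosystem, Rubisco, Calvin cycle and photorespiration genes. The ranking was steep: the top 10 genes held 13.7% of the summed FPKM, the top 25 held 21.9% and the top 100 held 37.1%. From the top, 327 genes held 50% of the total, and 5936 held 90%. A mean of at least 1 FPKM was reached by 16438 of 27634 rows, with a median of 11 FPKM among them, 1036 rows reached 100 FPKM, 85 reached 1000, and 4 reached 10000.

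The most abundant transcript was LHCB1.3 (CAB1, AT1G29930), an antenna protein of photosystem II, at 25182, 28067, 24122 and 24690 FPKM in replicates 1 to 4 (25515 ± 1755, SD, n = 4). It ranked at the top in each of the 4 libraries, and the next gene, LHCB1.5 (AT2G34420), averaged 12775 ± 867 FPKM (SD, n = 4). The other LHCB1 genes, LHCB1.2, LHCB1.4 and LHCB1.1, averaged 7048, 6394 and 4897 FPKM. The family shares sequence: the LHCB1.1 and LHCB1.2 transcripts are 93.6% identical, with 987 identical bases, and LHCB1.3 is 88.8% identical to LHCB1.1, so the split of reads among the 5 genes is less certain than their sum.

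**Figure D1:**
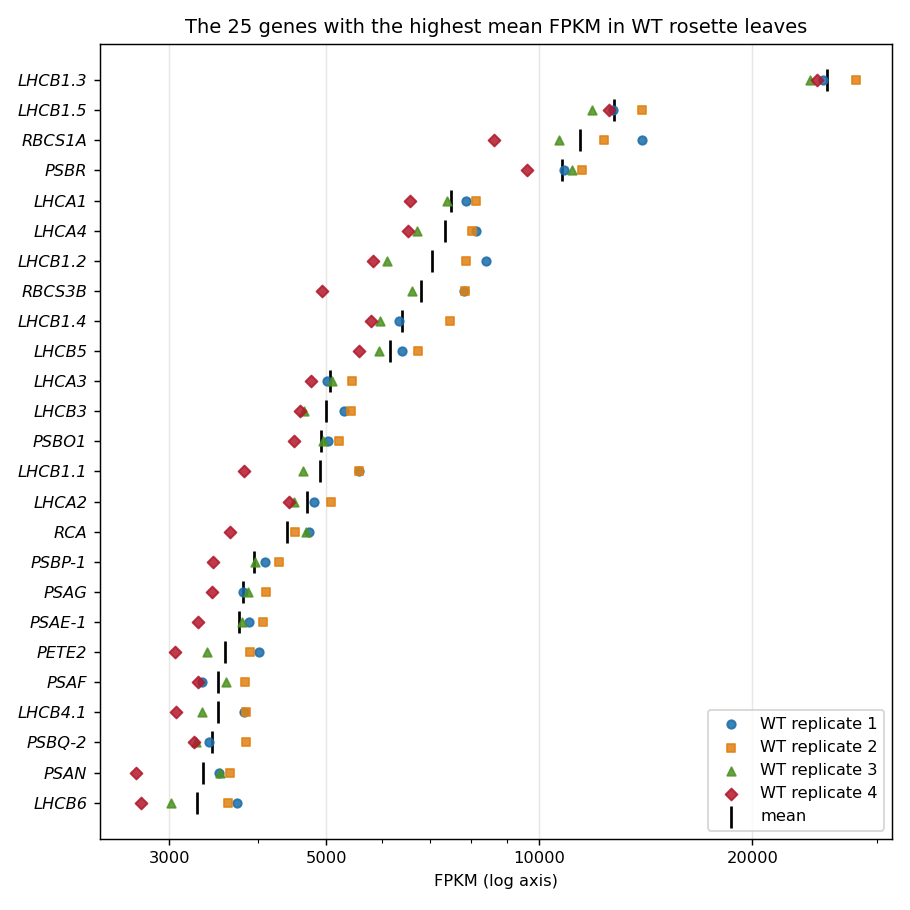
FPKM (log axis) of the 25 genes with the highest mean FPKM in each WT library, with the mean as a bar. LHCB1.3 stands alone near 25515 FPKM, and replicate 4 is the lowest library for all but LHCB1.3 and LHCB1.5.

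Photosystem I antenna genes and other photosystem II antenna genes followed. LHCA1, LHCA4, LHCA3 and LHCA2, which surround photosystem I, averaged 7502, 7350, 5071 and 4702 FPKM, and LHCB5, LHCB3, LHCB4.1 and LHCB6 averaged 6164, 4992, 3520 and 3284 FPKM. Among photosystem subunits, PSBR of photosystem II led at 10772 ± 819 FPKM (SD, n = 4). The oxygen-evolving complex proteins PSBO1, PSBP-1 and PSBQ-2 averaged 4923, 3951 and 3450 FPKM. Photosystem I subunits PSAG, PSAE-1, PSAF and PSAN lay between 3355 and 3816 FPKM, beside PETE2, a plastocyanin that carries electrons to photosystem I, at 3592 FPKM.

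Rubisco assembles from a small subunit encoded in the nucleus by the RBCS genes and a large subunit encoded in the chloroplast. RBCS1A (AT1G67090) had 13968, 12364, 10674 and 8646 FPKM in replicates 1 to 4, and RBCS3B (AT5G38410) had 7826, 7861, 6612 and 4939 FPKM. RBCS2B and RBCS1B averaged 2720 and 1334 FPKM. Rubisco activase (RCA), which clears inhibitory sugars from the enzyme, had 4736, 4516, 4690 and 3662 FPKM. Replicate 4 was the lowest of the 4 for each of these 5 genes. In the Calvin cycle, the glyceraldehyde-3-phosphate dehydrogenase subunit GAPB and the aldolase FBA2 led at 1807 and 1800 FPKM, and phosphoribulokinase (PRK), which remakes the acceptor of carbon dioxide, averaged 905 FPKM. In the photorespiration list, the catalase gene CAT3 led at 1955 FPKM and the serine hydroxymethyltransferase gene SHM1 followed at 1653 FPKM. The catalase gene CAT2 averaged 325 FPKM.

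Outside these lists, the most abundant transcript was carbonic anhydrase CA1, which interconverts carbon dioxide and bicarbonate, at 2716 ± 474 FPKM (SD, n = 4) and rank 31. Next came AT2G45180, a lipid-transfer-like protein, at 2586 FPKM, CCL at 2158 FPKM, the thiamine synthesis enzyme THI1 at 2138 FPKM, and ECS1 at 1939 FPKM. CCL had 1484, 2276, 2214 and 2658 FPKM in replicates 1 to 4, and ECS1 had 1418, 1761, 2046 and 2530 FPKM, so both were lowest in replicate 1 and highest in replicate 4. The drought-response gene ERD15, the germin-like gene GER1 and the vacuolar water channel gene TIP2 averaged 1824, 1783 and 1290 FPKM.

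Counted by reads instead of per length, the 134 genes of the 4 photosynthesis classes (light harvesting, photosystem and electron transport, Rubisco and Calvin cycle, photorespiration) took 28.1%, 28.9%, 26.2% and 23.6% of the counts in replicates 1 to 4, a mean of 26.7 ± 2.37% (SD, n = 4). Their share of the summed FPKM was higher, at 33.1%. Light harvesting alone took 12.1 ± 1.03% of the counts from 27 genes, the photosystems and electron transport 7.69 ± 0.66% from 68, Rubisco and the Calvin cycle 5.02 ± 0.783% from 23, and photorespiration 1.9 ± 0.031% from 16 (SD, n = 4 each). The photorespiration share lay between 1.87% and 1.94%, but its genes were not even. The catalase gene CAT3 was highest in replicate 4, at 3284, 3574, 2970 and 4952 CPM in replicates 1 to 4. By contrast, 12 of the 13 genes of the photorespiration list were lowest in replicate 4. Among them was the catalase gene CAT2, at 693.4, 633.1, 731.1 and 459.3 CPM. Rubisco and the Calvin cycle took 5.73% of counts in replicate 1 and 3.93% in replicate 4.

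**Figure D2:**
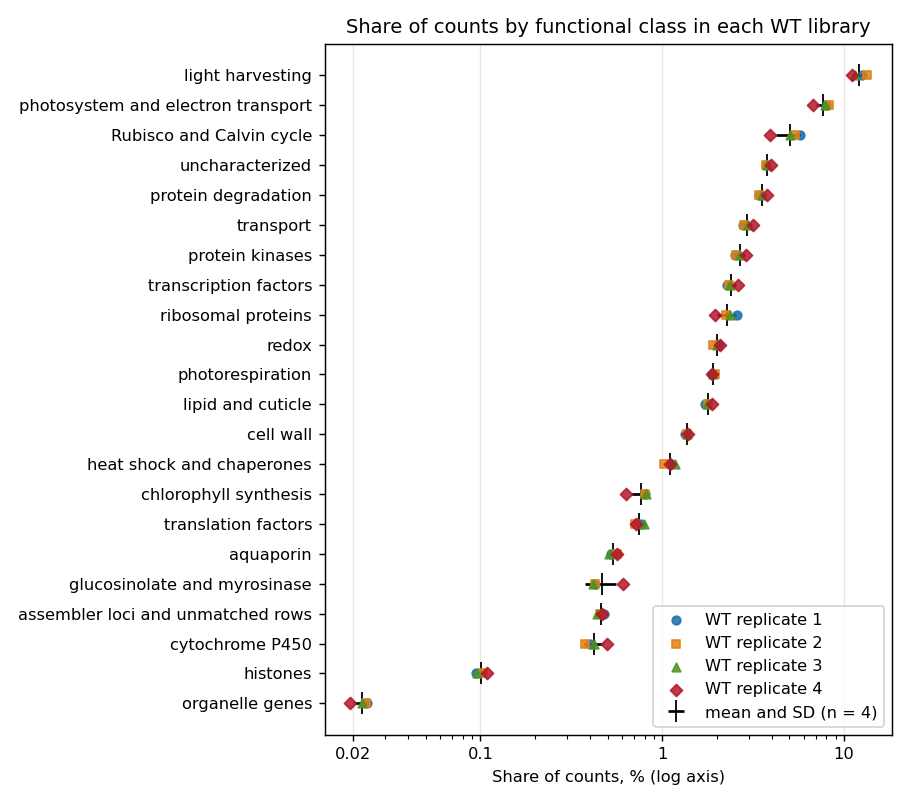
Share of counts (percent, log axis) of each functional class in the 4 WT libraries, with mean and SD. The class of all other annotated genes, at 45.9%, is left out. Light harvesting, the photosystems, and Rubisco with the Calvin cycle hold the largest shares, and replicate 4 is the lowest library in each of them.

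The remaining counts were spread over many genes. Protein degradation took 3.54 ± 0.17% of the counts, transport 2.92 ± 0.186%, protein kinases 2.67 ± 0.174%, transcription factors 2.39 ± 0.142% and cytosolic and organellar ribosomal proteins 2.27 ± 0.263% (SD, n = 4 each). These classes hold 1738, 824, 980, 1537 and 384 genes. Ribosomal proteins were 1.94% in replicate 4, against 2.24% to 2.57% in the others. The 16 genes of chlorophyll synthesis took 0.808%, 0.799%, 0.81% and 0.63% of the counts in replicates 1 to 4, so replicate 4 lay apart from the other libraries. Glucosinolate and myrosinase genes, the mustard oil defence of this plant family, took 0.425%, 0.428%, 0.414% and 0.606%, again with replicate 4 apart. Genes of the chloroplast and mitochondrial genomes took 0.0193% to 0.0238% of counts. Most organelle transcripts carry no stable poly(A) tail, so the large subunit of Rubisco and the photosystem cores, which those genomes encode, are not described here.

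Leaf cell types were visible through the leading markers of their lists. A mean of 1 FPKM was reached by 6 of 14 epidermis and trichome genes and 7 of 16 xylem genes. Of guard cell genes 8 of 12 reached it, and of phloem genes 8 of 10, against 16438 of 27634 rows. Of 14 epidermis and trichome genes, CER6, a wax synthesis enzyme, led at 212 ± 26.5 FPKM (SD, n = 4), and the epidermal regulators PDF2 and ATML1 averaged 28.4 and 20.7 FPKM. Among guard cell markers, the potassium channel KAT1 averaged 44.4, the regulator FAMA at 6.32 and the anion channel SLAC1 at 1.81 FPKM. Phloem markers PP2-A1 and SUC2, the sucrose loader, averaged 221 and 114 FPKM with coefficients of variation (CV, SD over mean of CPM) of 2.09% and 7.97%. The xylem peptidases XCP2 and XCP1 averaged 10.2 and 4.92 FPKM, and the secondary wall regulators NST1 and SND1 had 0 counts in all libraries. In bulk tissue, fewer cells of a type and less RNA per cell cannot be told apart.

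Of 25 cell cycle genes, 13 reached 1 FPKM, against 16438 of 27634 rows, led by CDKA1 at 32.3 FPKM, a kinase gene expressed also outside division, and the mitotic kinase gene AUR1 averaged 1.75 FPKM. Flowering signals were present, with SOC1 and SVP, an activator and a repressor of flowering, at 91.0 and 77.0 FPKM and the florigen gene FT at 10.6, 11.6, 14.9 and 18.6 FPKM in replicates 1 to 4.

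DLK2 and the butenolide receptor genes D14 and KAI2 were all expressed. DLK2 itself had 50.4, 60.1, 71.4 and 65.1 FPKM in replicates 1 to 4, beside the strigolactone receptor gene D14 at 53.6 ± 1.94 FPKM and the karrikin receptor gene KAI2 at 42.5 ± 4.07 FPKM (SD, n = 4 each). SMAX1, the repressor degraded in karrikin signalling, averaged 77.6 ± 4.25 FPKM (SD, n = 4), above SMXL7, SMXL6 and SMXL8 at 11.2, 6.24 and 1.76 FPKM. The F-box gene MAX2, shared by both pathways, averaged 16.2 FPKM, and the bud regulators BRC1 and BRC2 averaged 0.503 and 0.325 FPKM. None of the 9 tested members of this list of 14 was called variable by the rule given further on, against 1.31% of all tested genes.

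Clock genes had a median CV of 11.1% over 21 tested members, close to the 10.6% of all tested genes. None was called variable, against 1.31% of all tested genes. PRR7 had 97.7, 98.6, 103.9 and 97.3 FPKM, and TOC1 had 33, 38.8, 38.6 and 43.5 FPKM in replicates 1 to 4. Clock transcripts swing through the day, and these values hold for the unstated hour of harvest only.

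A count of 0 in all 4 libraries was found for 5882 of 27634 rows, 21.3%, which over 81217502 summed counts allows a level of up to 0.0369 CPM (3 counts of the total, counting error only). Of these rows, 4957 also had 0 counts in the other 4 libraries of the series. A further 1073 rows had counts in 1 library only, 886 of them with at most 2 counts, and 19306 rows had counts in all 4. By chromosome the share of silent rows ran between 19.2% and 22%.

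Silence was uneven among gene families. Of 81 ECA1 gametogenesis related genes, 80 had 0 counts (98.8%). Of 217 defensin-like genes, small secreted peptides many of which act in pollen tubes and ovules, 199 were silent (91.7%), and of 67 S-protein homologues 61 were silent (91%). F-box genes, which pick proteins for degradation, were silent in 375 of 629 cases (59.6%), RALF peptide genes in 20 of 37 (54.1%) and Agamous-like MADS-box genes in 58 of 118 (49.2%). Genes with pectin or pectate in the product name, which include lyases, methylesterases and methylesterase inhibitors, were silent in 112 of 250 cases (44.8%). At the other end stood ribosomal proteins, with 24 of 385 silent (6.23%). These shares are set against 21.3% of all rows.

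**Figure D3:**
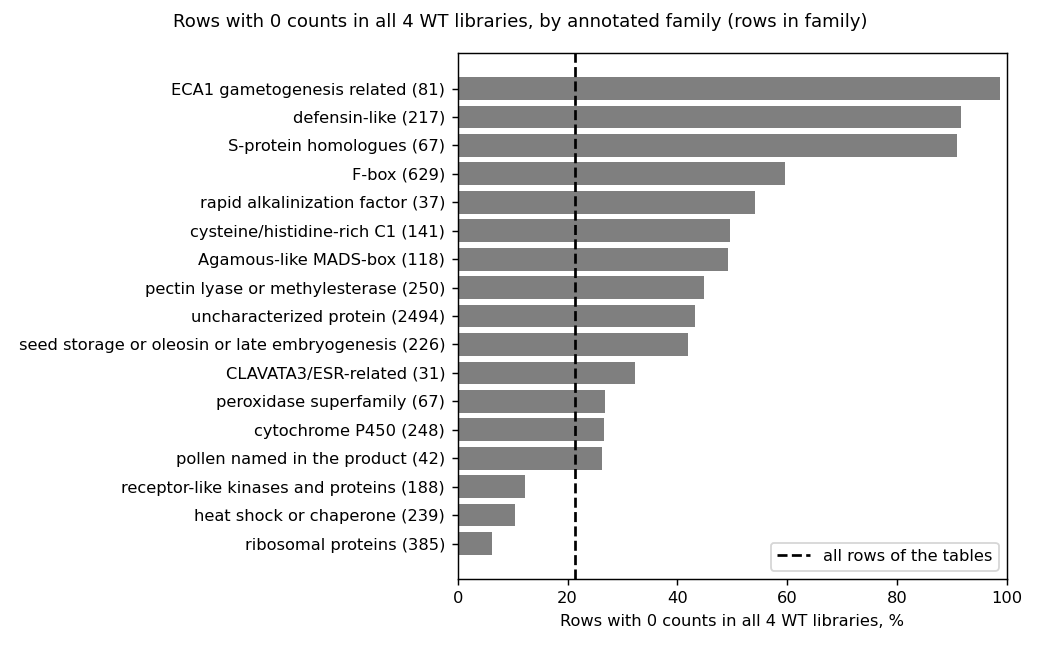
Percent of rows with 0 counts in all 4 WT libraries by annotated family, for families of at least 30 rows, with the number of rows in brackets and the share of all rows (21.3%) as a dashed line. ECA1 genes reach 98.8%, and ribosomal proteins lie at 6.23%.

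Among organ markers, 11 of 19 seed genes were silent (57.9%, against 21.3% of all rows), including the master regulators LEC1 and ABI3 and the late embryogenesis gene EM1. The seed gene with the highest level was FUS3, at 0.48, 0.262, 0.238 and 0.295 FPKM. Of 24 root genes 13 were silent (54.2%), among them the root stem cell regulators PLT1 and PLT2. The highest of that list were SCR and SHR, at 7.95 and 2.08 FPKM, which are also expressed in leaves, where they pattern the bundle sheath. Of 14 pollen genes 3 were silent (21.4%), and ANX1 was the highest at 1.52 FPKM. Of 22 shoot meristem and flower genes 4 were silent, namely CLV3, STK, UFO and CAL, while the MADS-box genes SEP3 and SEP4 averaged 21.7 and 21.4 FPKM. The pollen share was near that of all rows, and the flower share was below it. The senescence marker SAG12, a protease gene switched on in yellowing leaves, had 0 counts. A count of 0 can hide a gene whose reads went to a copy, but of 5408 silent protein-coding genes with a transcript sequence, 110 (2.03%) had a copy of at least 95% identity with counts of its own, and only 1 of the list members did, the phosphate transporter gene PHT1;1, whose copy PHT1;2 had 2 counts in all.

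Most genes differed little among the libraries. The median CV of the 13355 tested genes was 10.6%, with quartiles of 7.08% and 15.6%, and 6178 genes (46.3%) lay under 10%. At 5 CPM and the mean library total, counting alone gives a CV of 9.92%. The median was 13.9% at 5 to 10 CPM, fell to 9.69% at 50 to 200 CPM, and was 13.2% at 1000 CPM or more. The steadiest genes with at least 50 CPM were NAC017, a membrane-bound regulator of the mitochondrial stress response, at 59.2, 59.7, 59.3 and 60 CPM (CV 0.632%), the B-box gene BBX14 (0.735%) and the glutathione transferase GSTL3 (0.797%). AT5G10560, UGT88A1, AT1G28240, AT2G20050, GAD2, AT5G23890 and MMZ3 followed, up to 1.03%. These are the lowest of many CVs, each from 4 libraries. Counting noise at their levels was not computed, so values this low do not show that biological spread was as low. The same limit holds for the lowest of the reference genes below.

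The 22 genes used as internal standards had a median CV of 8.32%, and none was called variable, against 1.31% of all tested genes. TIP41, at 24, 23.6, 23.3 and 23.3 CPM, was the steadiest of them (CV 1.45%), followed by ACT7 (3.39%) and ACT2 (3.9%). The glycolytic gene GAPC1 spread most, at 412, 269, 359 and 298 CPM (19%). UBQ10 (14.6%), UBQ5 (15.7%), TUA2 (13.9%), TUB6 (13.6%), ACT8 (13.2%) and YLS8 (11.6%) also lay above the median of all tested genes, while UBC21 (9.11%), GAPC2 (8.76%), CYP5 (8.71%), ROC3 (8.41%), UBC9 (8.22%), UBQ11 (7.77%), PP2AA3 (7.63%), APT1 (7.27%), EIF4A1 (6.18%), ROC1 (5.78%), TUB4 (5.76%) and MON1 (5.29%) lay under it.

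A CV over 50% at a mean of at least 5 CPM was found for 175 of 13355 genes, 1.31%. Of these, 103 were highest in replicate 4, 52 in replicate 1, 15 in replicate 2 and 5 in replicate 3. Over all tested genes the highest library was replicate 4 in 31%, replicate 1 in 26.9%, replicate 2 in 22.2% and replicate 3 in 19.9%. In 104 of the 175, the highest library stood at least 2-fold above the next. Without replicate 4 the count of genes called was 106, and 79 of the 175 were still called, against 116 of the 175 without replicate 1. None of the 125 tested photosynthesis genes was called variable, but their median CV of 14.2% lay above the 10.6% of all tested genes. The share called fell with level, from 3.56% at 5 to 10 CPM to 0% at 1000 CPM or more. Calls fell on 9 of 84 cytochrome P450 genes (10.7%), 14 of 223 lipid and cuticle genes (6.28%) and 11 of 190 cell wall genes (5.79%).

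Of the 25 genes with the highest CV, several known from defence were highest in replicate 4. TPS04, the terpene synthase of the homoterpene volatile released by attacked leaves, had 8.76, 8.68, 11.9 and 197.9 CPM in replicates 1 to 4. CYP82G1, the P450 that completes that volatile, had 3.79, 3.38, 5.98 and 49.8 CPM. Both genes of the volatile's synthesis were thus high in replicate 4 alone. BSMT1, which makes methyl salicylate, had 0.614, 0.376, 0.235 and 24 CPM. TAT3, a tyrosine aminotransferase induced by jasmonate, had 50.2, 84.5, 92.9 and 643.4 CPM. CYP71A13 and PAD3, which act early and last in the synthesis of the antimicrobial camalexin, had 4.69, 8.03, 14.6 and 103.6 CPM, and 16.6, 17.7, 25.4 and 107.1 CPM. PAD3, CYP71A12, and the genes MSRB8 and MSRB9 named further on, were chosen after their values were seen. CYP71A12, a close relative of CYP71A13, had 4.74, 3.99, 3.53 and 10.8 CPM.

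A cluster of methionine sulfoxide reductases on chromosome 4, enzymes that repair oxidised proteins, had the same highest library: MSRB7 had 0.167, 1.97, 0.894 and 50.3 CPM, its neighbour MSRB8 had 1.17, 3.47, 3.77 and 13.6 CPM, and MSRB9 had 3.46, 6.9, 5.7 and 32.1 CPM. The fatty acid reductase gene FAR5 (0.112, 0.329, 0.188 and 20.3 CPM), the receptor-like protein gene RLP53 (1.39, 1.13, 0.988 and 18 CPM), the monodehydroascorbate reductase gene MDHAR (AT3G09940; 2.51, 5.35, 5.88 and 69.4 CPM) and the jasmonate catabolism gene JRG21 (3.68, 2.63, 2.26 and 24.4 CPM) were likewise high in replicate 4 only. AT2G45220, AT2G38240 and NATA1 were also highest there, at 22.6, 24.2 and 25.8 CPM. Replicate 4 also had the highest scaling factor, 1.054, against 0.962 to 0.996 in the others, and its total of 19641535 counts lay between theirs. The part of library composition in these differences was not tested.

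**Figure D4:**
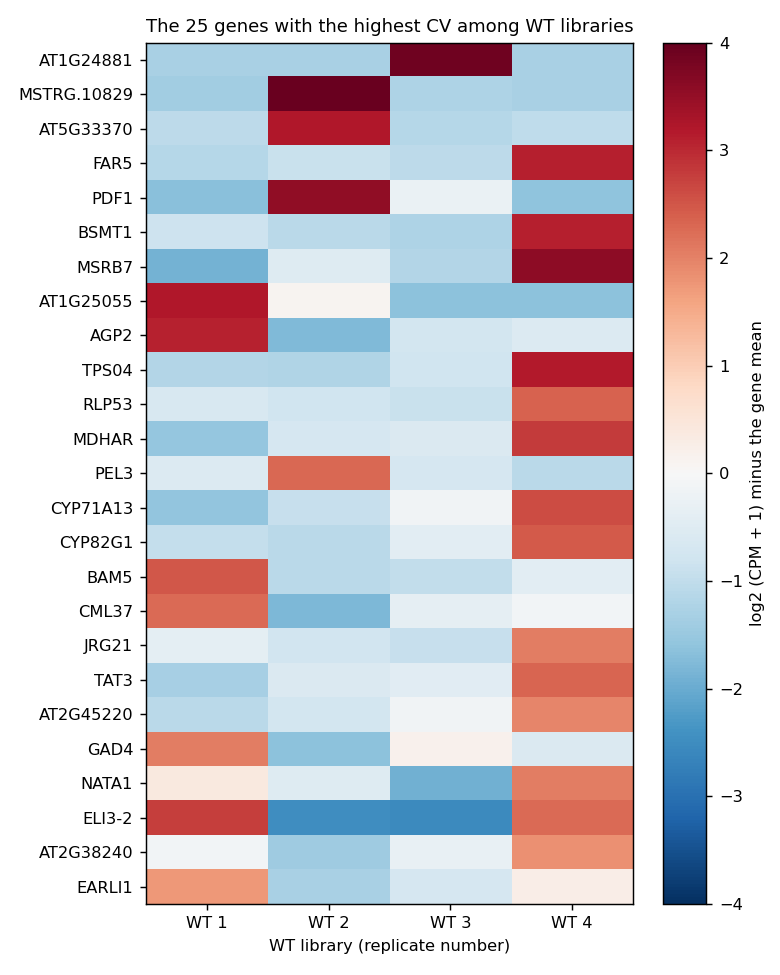
log2 (CPM + 1) minus the gene's mean over the 4 WT libraries (colour, red above and blue below) for the 25 genes with the highest CV. Individual libraries carry most of the spread, replicate 4 for FAR5, BSMT1, MSRB7, TPS04 and TAT3, and replicate 2 for PDF1 and AT5G33370.

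Promoters of the 4 annotated genes with the highest CV among those highest in replicate 4 show the windows of the strongest differences. They are the 250 bases before the gene start on the gene's strand in TAIR10.1: chr3:16137326-16137575 (+), chr3:3614171-3614420 (+), chr4:11585543-11585792 (-) and chr1:22523385-22523634 (+). Capitals mark the W-box, TTGACC or TTGACT on either strand, the motif bound by WRKY factors of the immune response.
FAR5: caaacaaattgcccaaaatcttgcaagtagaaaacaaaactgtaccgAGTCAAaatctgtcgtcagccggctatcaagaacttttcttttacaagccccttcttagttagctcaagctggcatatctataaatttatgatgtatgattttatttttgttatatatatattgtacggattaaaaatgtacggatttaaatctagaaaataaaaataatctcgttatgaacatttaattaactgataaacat
BSMT1: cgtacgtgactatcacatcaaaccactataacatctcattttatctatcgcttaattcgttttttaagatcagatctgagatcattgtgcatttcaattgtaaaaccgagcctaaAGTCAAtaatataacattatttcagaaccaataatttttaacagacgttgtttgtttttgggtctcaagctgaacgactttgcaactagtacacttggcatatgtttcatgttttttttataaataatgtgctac
MSRB7: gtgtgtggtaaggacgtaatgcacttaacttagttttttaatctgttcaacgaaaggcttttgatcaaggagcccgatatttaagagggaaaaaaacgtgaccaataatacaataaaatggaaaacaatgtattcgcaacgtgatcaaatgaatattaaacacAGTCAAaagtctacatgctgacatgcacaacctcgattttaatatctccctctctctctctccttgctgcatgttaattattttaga
TPS04: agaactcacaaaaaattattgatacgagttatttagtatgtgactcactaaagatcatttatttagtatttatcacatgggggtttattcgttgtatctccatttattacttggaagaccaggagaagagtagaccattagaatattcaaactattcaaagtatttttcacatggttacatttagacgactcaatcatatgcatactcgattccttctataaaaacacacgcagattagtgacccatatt
FAR5, BSMT1 and MSRB7 each held 1 W-box, and TPS04 held none in this window. Of the 103 variable genes highest in replicate 4, 39 held a W-box (37.9%), as did 23 of the 52 highest in replicate 1 (44.2%), against 28.5% of all promoters. The share was thus as high in the genes of replicate 1, and no binding was measured.

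Most immune genes were highest in replicate 4. Of 18 salicylate and immunity genes, 14 were tested and 4 called variable, against 1.31% of all tested genes, namely PR2, PBS3, EDS5 and ALD1. PR2, a secreted glucanase, had 72, 103.5, 123.6 and 232.9 CPM in replicates 1 to 4, and ALD1, which starts the synthesis of the systemic signal pipecolic acid, had 3.12, 6.15, 10.4 and 33.4 CPM. The list's level (median over tested members of log2 (CPM + 1) minus the member's mean) was -0.39, -0.15, -0.02 and 0.62 in replicates 1 to 4, and 13 of the 14 members were highest in replicate 4, against 31% of all tested genes. WRKY70, PR1 and PAD4, at 38.6%, 28.4% and 31.6% CV, stayed under the threshold. Without replicate 4, 1 of the 4 members was still called.

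Glucosinolate genes were highest in replicate 4 for 19 of 25 tested members, against 31% of all tested genes, with levels of 0.04, -0.3, -0.03 and 0.4. NSP1, which steers glucosinolate breakdown to nitriles, was the 1 member called variable, against 1.31% of all tested genes, at 86.3, 55.2, 49.2 and 164.3 CPM, and was not called without replicate 4. The myrosinase gene TGG1 had 585, 705, 591 and 970 FPKM. Jasmonate genes had 3 of 22 tested members called, against 1.31% of all tested genes, AOC3 and JAZ10, both highest in replicate 4, and the storage protein gene VSP2, at 135.9, 27.4, 18.7 and 73.3 CPM and so highest in replicate 1. Without replicate 4, 1 of the 3 was still called. Senescence genes had 3 of 7 tested members called, against 1.31% of all tested genes, namely SAG13, SAG21 and NAP, and 1 of them was still called without replicate 1. NAP, a NAC regulator of leaf ageing, had 3.46, 8.54, 7.2 and 15.4 CPM.

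On the CPM scale photosynthesis genes were lowest in replicate 4, which held for all 32 photosystem and electron transport genes and all 21 light harvesting genes of the lists. LHCB7 was nearly tied, at 9.03 CPM in replicate 4 and 9.04 CPM in replicate 1. The share of all tested genes lowest in each library was not taken. Counts of genes lowest in a library, here and in other lists, thus have no background. In FPKM the 5 light harvesting genes LHCB1.3, LHCB1.5, LHCB2.2, LHCB4.2 and LHCB7 were lowest in replicate 1 or 3 instead. The list levels, in CPM, were of -0.27 and -0.22 in replicate 4, against 0.17 and 0.19 in replicate 2. Rubisco and activase genes had levels of 0.24, 0.19, -0.01 and -0.45. The CVs stayed moderate, with medians of 12.9%, 12.7% and 22.5% for the 3 lists. In xylem genes, all 4 tested members were lowest in replicate 1 and highest in replicate 4, where 31% of all tested genes were highest. XCP1, the 1 member called variable, against 1.31% of all tested genes, had 1.9, 4.6, 7.34 and 10.4 CPM. It was not called without replicate 1 or without replicate 4. These xylem markers moved with the libraries beside the immune genes, and their part in those differences was not tested.

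**Figure D5:**
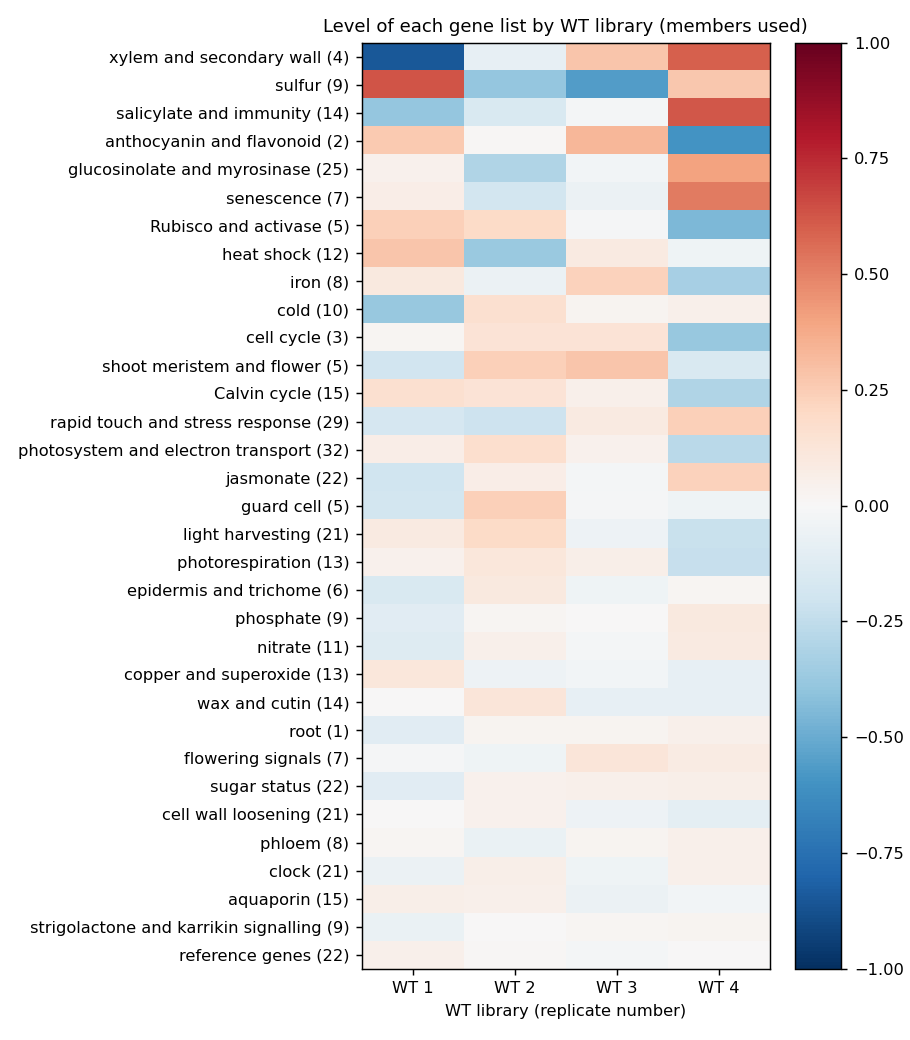
Level of each of 33 gene lists in each WT library: median over tested members (number in brackets) of log2 (CPM + 1) minus the member's mean. Replicate 4 is red for salicylate and immunity (0.62) and blue for Rubisco (-0.45), and reference genes stay within -0.02 to 0.05.

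Most tested sulfur and heat shock genes were highest in replicate 1. Of 9 tested sulfur genes, 8 were highest in replicate 1, against 26.9% of all tested genes, and 4 were called variable, against 1.31%, namely SDI1, LSU2, GGCT2;1 and SULTR4;2, which respond to low sulfur supply. SDI1 had 21.6, 5.45, 3.58 and 14.3 CPM. The list's levels were 0.63, -0.39, -0.56 and 0.27, so replicate 4 lay on the same side as replicate 1, and without replicate 1 only 1 of the 4 was still called. Of 12 tested heat shock genes, 8 were highest in replicate 1, against 26.9% of all tested genes, 3 in replicate 3 and 1 in replicate 4. The list's levels were 0.28, -0.37, 0.09 and -0.04 in replicates 1 to 4. Among heat shock genes 2 of 12 tested members were called, against 1.31% of all tested genes, HSP70 at 38.4, 4.65, 15.6 and 11.1 CPM and HSP17.6B at 14.8, 2.35, 3.48 and 2.51 CPM. Without replicate 1, 1 of the 2 was still called. The list's 9 small heat shock proteins, singled out after their values were seen, were all highest in replicate 1 and summed to 43.2, 4.13, 6.87 and 6.09 CPM. Most of them lay under 5 CPM and were not tested.

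The windows of 2 heat shock list genes show the motif that heat shock factors bind. They are the 2 members with the highest mean FPKM among those that hold the long heat shock element (GAA, TTC and GAA, each 2 free bases apart), marked in capitals on either strand: DREB2A, chr5:1601955-1602204 (+), and HSP17.4, chr3:16984868-16985117 (-), both 250 bases before the gene start in TAIR10.1.
DREB2A: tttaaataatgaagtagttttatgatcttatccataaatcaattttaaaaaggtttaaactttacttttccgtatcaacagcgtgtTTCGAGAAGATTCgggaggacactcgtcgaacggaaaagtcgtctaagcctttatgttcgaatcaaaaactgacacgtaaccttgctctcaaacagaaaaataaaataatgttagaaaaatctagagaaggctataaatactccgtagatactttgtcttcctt
HSP17.4: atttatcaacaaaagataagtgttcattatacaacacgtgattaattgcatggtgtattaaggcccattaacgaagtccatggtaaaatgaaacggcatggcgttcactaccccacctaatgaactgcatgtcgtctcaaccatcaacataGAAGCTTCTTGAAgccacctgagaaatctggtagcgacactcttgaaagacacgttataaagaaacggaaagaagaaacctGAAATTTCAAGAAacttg
DREB2A held 1 such element and HSP17.4 held 2. Of the 24 genes of the list, 6 held it (25%), against 0.393% of all promoters. HSP17.4 had 8.42, 0.563, 1.37 and 1.16 CPM (CV 129%), and its mean of 2.88 CPM lay under the filter. DREB2A, a drought and heat regulator, had 7.92, 5.77, 5.46 and 6.47 CPM (CV 17.1%, against a median of 10.6% over all tested genes). The element thus stood in 2 genes of unlike spread.

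Other genes high in replicate 1 were AGP2, an arabinogalactan protein gene, at 54.2, 0.939, 2.97 and 3.48 CPM, the beta-amylase gene BAM5 at 87.9, 6.62, 7.06 and 10.8 CPM, the calmodulin-like gene CML37 at 26.2, 0.61, 3.44 and 4.25 CPM, GAD4 at 26.2, 1.08, 6.35 and 3.38 CPM, and EARLI1 at 15.5, 0.986, 2.07 and 4.88 CPM. PYK10, the beta-glucosidase of endoplasmic reticulum bodies, had 100.2, 16.2, 15.7 and 56.4 CPM, and ELI3-2 had 53.4, 0.422, 0.377 and 37.4 CPM, so both were high in replicates 1 and 4 and low in replicates 2 and 3. The touch list of 29 tested genes had 2 called, against 1.31% of all tested genes. They were CML37 and RHL41, both highest in replicate 1 and neither called without it. Of the 29, 17 were highest in replicate 4, against 31% of all tested genes.

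Some epidermis and wax genes, and a few barely detected flower and meristem genes, had their highest level in replicate 2. PDF1, a protein gene of the outermost cell layer of shoot tips and young organs, had 0, 36.9, 1.69 and 0.0483 CPM in replicates 1 to 4. AT5G33370, a cuticle-type lipase gene, had 0.167, 21.4, 0.0941 and 0.193 CPM, and the acyltransferase gene PEL3 had 2.29, 23, 2.02 and 1.3 CPM. In the wax list, 1 of 14 tested members was called, against 1.31% of all tested genes. It was the wax alkane gene CER1, at 20.1, 44, 17 and 15.9 CPM. Of the 14, 9 were highest in replicate 2, against 22.2% of all tested genes. Neither PDF1 nor CER1 was called without replicate 2. Low genes, AP1, AP3, PI and SEP2 of the flower and STM and KNAT1 of the shoot meristem, singled out after their values were seen, summed to 0, 108, 1 and 5 counts in replicates 1 to 4 and were each highest in replicate 2. They lay under 5 CPM and were not tested. Of the same list of shoot meristem and flower genes, 2 of 5 tested members were called, against 1.31% of all tested genes. They were SEP3 at 18.4, 28.1, 34.6 and 8.79 CPM and SEP1 at 4.96, 14.4, 14.6 and 3.72 CPM, both highest in replicate 3. Neither was called without replicate 4, their lowest library. Of the 5 tested members, 0 were highest in replicate 2, against 22.2% of all tested genes. Replicate 3 was highest for 4, against 19.9%, and replicate 4 for 1. The epidermal regulator gene ATML1 was also highest in replicate 2, by a smaller margin, at 58.4, 78.1, 61.8 and 63.9 CPM. The part of shoot tip or flower bud tissue in these values was not tested.

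The highest CV of all, 200%, belonged to a gene with identical copies. AT1G24881, an F-box gene, had 0, 0, 745 and 0 counts in replicates 1 to 4, and AT1G25055 had 496, 50, 0 and 0. Their transcripts are 100% identical over 1550 bases, and AT1G24800, AT1G25150 and AT1G25211 on the same chromosome are at least 99.8% identical to them. The 5 genes together had 1214, 1482, 1550 and 1523 counts, or 67.7, 69.6, 73 and 73.6 CPM, with a CV of 3.92%. AT5G52550 and AT5G52552, of which AT5G52552 has no match in the annotation used and both singled out after their values were seen, had 541, 2, 304 and 334 counts and 0, 716, 304 and 334 counts, with a CV of 7.2% for their sum. Whether that pair shares reads was not tested, and the values of all 7 genes are uncertain gene by gene. Of the 173 variable genes with a transcript sequence, 4 had a copy of at least 95% identity and 29 overlapped an exon of another gene, BSMT1 and CYP71A13 included, where reads of the 2 genes cannot be told apart if the counting ignored strand. MSTRG.10829, a locus built by the authors' assembler with no annotation here, had 0, 829, 2 and 1 counts.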

How the data were processed

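Values from the 4 WT libraries were described with no test, because they form 1 group. Per the labels, poly(A) RNA was sequenced on Illumina. Per the submitters' processing notes, the tools were RSEM, StringTie 1.3.1, HISAT2, edgeR, DESeq2, Bowtie2 2.2.8 and fastp 0.18.0, in no stated role, and the build was TAIR10. Whether counting used strand was not given in the sources used here. Each deposited table gives a read count and an FPKM value for 27634 rows, per the file headers. Some deposited counts of 0 (5 to 12 rows a library) had an FPKM above 0, up to 0.115, and no FPKM of 0 had a count. How reads that map to several genes were counted is not stated.

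Rows were matched by locus tag to RefSeq's TAIR10.1 annotation: 26719 matched, 210 are organelle genes, 218 are assembler loci (0.314% to 0.354% of counts) and 487 matched nothing (0.121% to 0.131%). Abundance was ranked by mean FPKM, which is per length. Spread among libraries used CPM scaled by TMM in edgeR 4.0.16 under R 4.3.3, with CV as SD over mean (n = 4). Genes were called variable at a CV over 50% and a mean of at least 5 CPM, where 4 libraries allow at most 200%. Functional classes came from membership of the gene lists or from words in the annotated products, in a fixed order. The 35 lists of 651 loci came from textbook roles. The members and lists were chosen with earlier results of these data known. Genes were named by rule: the 25 highest by FPKM, the 25 highest by CV, the 10 lowest by CV at 50 CPM or more, the reference genes, silent or leading organ markers, and for each list up to 4 leading members with the variable ones; any other gene was chosen after its values were seen. Copies were found with blastn 2.17.0 (95% identity over 50% of the transcript). Motifs were sought on both strands. The CV rule was run on simulated counts in which genes had either a low or a high spread, both set far from the threshold. That run cannot show how the rule does near the threshold. Intervals and limits from counts cover counting error only, since no molecular identifiers were used. Alternatives were other scalings (DESeq2 1.42.0 size factors, total counts, deposited FPKM), filters, thresholds and the omission of each library.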

Additional observations from a re-analysis of the deposited data

Results flagged for a closer look

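Of 138 values examined (class shares, list levels and named genes), 27 had 1 library far from the other 3, with a gap to the nearest library above Dixon's critical value as a share of the whole range. Chance flags about 1 in 20 groups of 4, and the variable genes were chosen for their spread, so their flags are no independent sign. Most of the 27 flags fell on those genes, so 27 of 138 cannot be set against the chance rate. The other flags, on 2 class shares, 1 list and a few genes, were not shown to exceed it. The share of chlorophyll synthesis was low in replicate 4, at 0.63%, and the share of glucosinolate and myrosinase genes was high there, at 0.606%. The sugar status list was low in replicate 1, at a level of -0.11. Rubisco activase (RCA) was low in replicate 4, at 6390.1 CPM. Among the reference genes, ACT7 was high in replicate 4 at 274.5 CPM, EIF4A1 was low in replicate 4 at 211.5 CPM, and APT1 was high in replicate 1 at 123.5 CPM.

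The remaining 20 are genes of the highest CV. Replicate 4 was apart for FAR5 (20.3 CPM), BSMT1 (24 CPM), MSRB7 (50.3 CPM), TPS04 (197.9 CPM), RLP53 (18 CPM), MDHAR (69.4 CPM), CYP71A13 (103.6 CPM), CYP82G1 (49.8 CPM), JRG21 (24.4 CPM), TAT3 (643.4 CPM) and AT2G45220 (22.6 CPM). Replicate 1 was apart for AT1G25055 (27.7 CPM), AGP2 (54.2 CPM), BAM5 (87.9 CPM) and CML37 (26.2 CPM). Replicate 2 was apart for MSTRG.10829 (38.9 CPM), AT5G33370 (21.4 CPM), PDF1 (36.9 CPM) and PEL3 (23 CPM), and replicate 3 for AT1G24881 (35.1 CPM).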

How the results depend on the processing

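The abundance ranking changed little under the alternatives run. Of the 25 most abundant genes, 22 to 25 stayed in the top 25 under other units and averages, and 24 to 25 without any 1 library. Genes at 1 FPKM or more numbered 16362 to 16473 without any 1 library, and 5882 silent rows became 6101 to 6249, or 5871 to 8223 under other rules for a silent row. The photosynthesis share of counts was 26 to 27.7% without any 1 library, and 33.1% as a share of summed FPKM, which divides by length. The number of variable genes, 175, depended on its thresholds: it was 3937 with no filter on low genes, 536 at 1 CPM and 37 at 20 CPM, 629 at a CV over 30% and 36 at a CV over 100%, and 108 by an edgeR tagwise biological coefficient of variation over 50%. It ranged from 106 to 253 without any 1 library, and the lowest was without replicate 4. Of the 25 genes with the highest CV, 0 stayed in the top 25 with no filter, 10 at 1 CPM and 6 at 20 CPM, by the construction of those filters, and 12 to 19 without any 1 library, the lowest again without replicate 4. Other scalings gave 177 to 201 variable genes. Leaving out genes with a near-identical copy or an overlapping exon, an alternative chosen after seeing the data, gave 142. The highest library of a list stayed the same for 30 to 33 of 33 lists, and the lists that changed were clock, cell cycle, flowering signals and cell wall loosening. Most class shares moved between counts and FPKM by more than the spread between libraries. Low counts limit the spread of rare genes, since counting alone gives a CV of 9.92% at 5 CPM. No paired analysis was possible because the 4 libraries form 1 group and no result comes from a test.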

Other observations

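Genes of nutrient status gave values not described above. Iron storage genes were uneven: the ferritin gene FER1 had 153.4, 114.2, 241.9 and 99.3 CPM in replicates 1 to 4, and FER3 had 32.4, 27.1, 41.6 and 18.1 CPM, so both were highest in replicate 3 and lowest in replicate 4. The iron superoxide dismutase gene FSD1 had 1005.1, 743.7, 887 and 517.9 CPM. The copper/zinc superoxide dismutase genes CSD1 and CSD2 had 51.3, 36.8, 40.7 and 65.7 CPM, and 32.7, 21.2, 28 and 48.1 CPM, so FSD1 was lowest and CSD1 and CSD2 were highest in replicate 4. None of 8 tested iron genes, 13 tested copper and superoxide genes or 9 tested phosphate genes was called variable, against 1.31% of all tested genes. PHR1, the main regulator of phosphate starvation, had a CV of 3.89%. Among cold genes, COR47 had 559.2, 836.4, 853.5 and 885.7 CPM, and 8 of 10 tested members of the list were lowest in replicate 1.

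Flavonoid genes were uneven in level. Chalcone synthase (CHS) had 14.8, 13, 15.2 and 5.98 FPKM in replicates 1 to 4, 5 of 16 members of the list reached 1 FPKM, against 16438 of 27634 rows, and the seed coat genes TT8 and BAN had 0 counts. The sucrose exporter genes SWEET11 and SWEET12 averaged 105 and 36.8 FPKM, and SWEET12 had 18.4, 27.5, 44.2 and 57.1 FPKM. Of the variable genes with a locus, 13 stood next to another variable gene in the table.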
